A study of Mus musculus with 12 samples.

Results

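RNA-seq values of the G1 cyclins (Ccnd1, Ccnd2, Ccnd3, Ccne1 and Ccne2), the cyclin D kinases (Cdk4 and Cdk6) and the Rb family (Rb1, Rbl1 and Rbl2) were examined in the mouse mammary tumour lines D2A1 and D2.OR. These 10 genes were taken by gene name from the 52550 genes of the deposited tables, and all 10 passed the filter on low counts that left 16823 genes for testing. Each line was grown in 2D or in 3D, with 3 replicates in each of the 4 groups (D2A1 in 2D, D2A1 in 3D, D2.OR in 2D and D2.OR in 3D) and 12 libraries in all. In 3D, single cells lay on a bed of growth-factor-reduced Matrigel in a low-serum medium with hydrocortisone, cholera toxin and insulin. For the sequenced cells the methods point to the general culture section, which gives DMEM for standard 2D work, while a passage on the 3D assay has 2D cells on plastic in the 3D medium. Which of these the 2D libraries had could not be settled, so medium and matrix cannot be told apart here. D2.OR and D2A1 came from separate tumours of the D2 hyperplastic alveolar nodule series, so a difference between them is a difference between 2 lines and not the effect of a treatment. The labels name no deleted or added gene in any group. Several wells were pooled for each RNA sample, and cells in 3D were first freed from Matrigel with a recovery solution. Replicate numbers mark batches, which also differ in the lane they were sequenced on. The study describes its repeats as biological in general terms, and how these cultures were kept apart is not given beyond the batch, so the p-values measure the spread between these libraries.

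Library totals ran from 47589611 to 73325069 expected counts, and the smallest count of any of the 10 genes in any library was 76.1, for Ccnd2 in D2.OR. Of 6 epithelial markers, 2 averaged at least 1 TPM (a level scaled for transcript length and library size) in D2A1 and 5 in D2.OR. Their summed TPM was 94.0 to 297 in D2A1 and 422 to 1716 in D2.OR, led by Krt18 in D2A1 and by Krt8 in D2.OR. Epcam and Cdh1, which define epithelium, stayed at or below 0.17 and 0.28 TPM in every D2A1 library. Of 6 fibroblast markers, led by Pdgfra and Pdgfrb, the summed TPM was 28.6 to 78.1 in D2A1 and 118 to 337 in D2.OR, so D2.OR had the higher levels of both lists. Endothelial markers summed to at most 0.63 TPM. Leukocyte markers summed to at most 32.1 TPM, nearly all of it Cd68.

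D-type cyclins bind Cdk4 or Cdk6 in response to growth signals, and the active kinase phosphorylates the retinoblastoma protein and its relatives p107 (gene Rbl1) and p130 (gene Rbl2). Unphosphorylated Rb-family proteins hold E2F transcription factors in check. Once they are phosphorylated, E2F target genes are transcribed, among them the genes of cyclin E1 and cyclin E2, whose kinase partner Cdk2 drives entry into S phase. p130 is known to prevail in resting cells and p107 in cycling cells, where it is itself an E2F target. Cyclin D1 is the D-type cyclin most closely tied to the mammary gland and its tumours.

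By TPM, Cdk4 stood at the top of each of the 4 groups (the plot of TPM by library). Cdk4 averaged 514 ± 48.4, 571 ± 16.9, 574 ± 16.6 and 530 ± 9.78 TPM (SD, n = 3) in D2A1 2D, D2A1 3D, D2.OR 2D and D2.OR 3D, and its range overlapped that of no other member in any group. Ccnd3 and Ccnd1 took the next places. In D2A1 their ranges overlapped, Ccnd3 averaging 138 TPM in 2D against 103 TPM for Ccnd1, whereas in D2.OR 3D Ccnd1 lay above Ccnd3 without overlap (163 to 234 against 147 to 157 TPM). Ccnd2 came next, still without overlap with the genes below it, in both D2A1 groups, at 91.5 ± 23.4 and 74.6 ± 18.7 TPM, and was last in both D2.OR groups, at 1.01 ± 0.298 and 0.59 ± 0.174 TPM. Below the D-type cyclins, Cdk6, the Rb-family genes and the E-type cyclins lay between 4.92 and 44.1 TPM. In D2A1 each of these genes overlapped in range with its neighbour in the order.

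**Figure D1:**
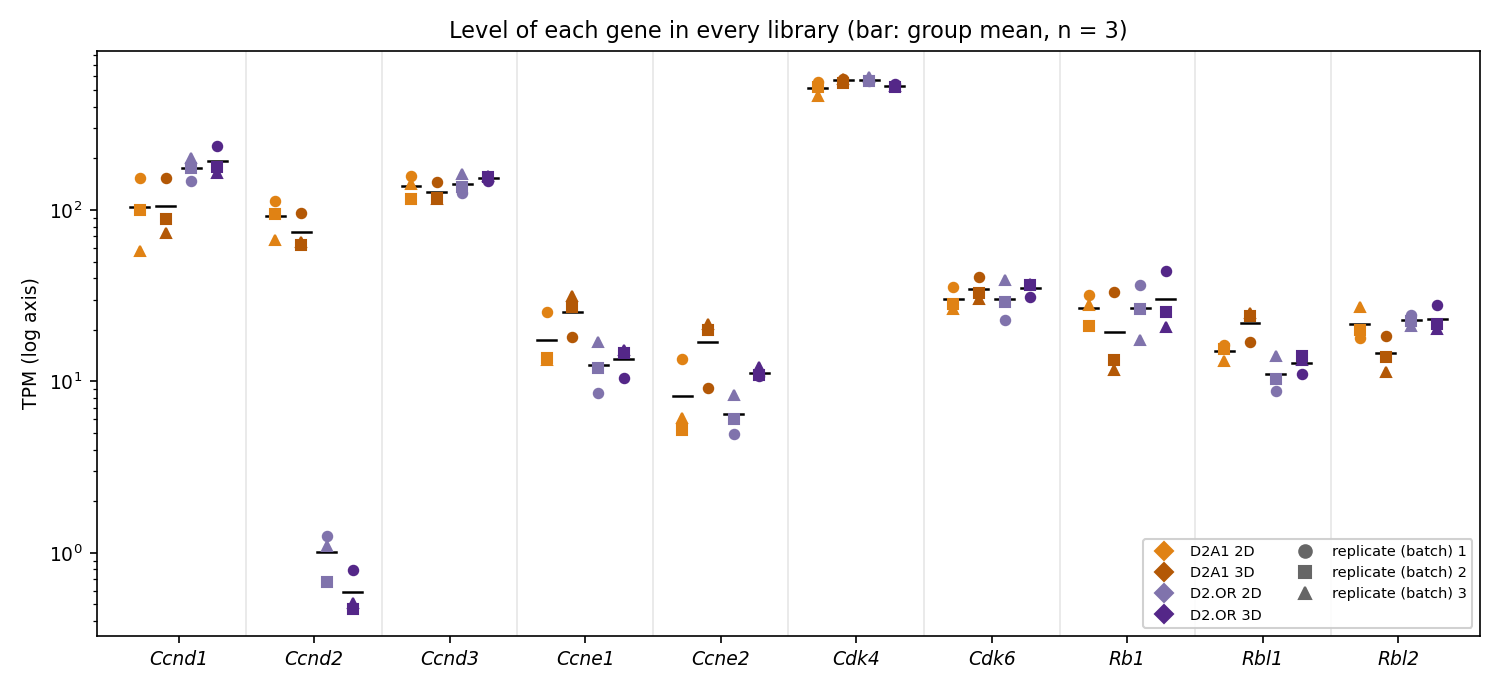
TPM on a log axis for each of the 10 genes in every library, with colour for the group, marker shape for the replicate (batch) and a bar at the group mean of 3 libraries. Ccnd2 lies between 62.5 and 113 TPM in D2A1 and between 0.47 and 1.26 TPM in D2.OR, whereas Cdk4 lies between 464 and 593 TPM throughout.

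Which of these genes differ between the lines was asked separately in 2D and in 3D, on counts, with edgeR's quasi-likelihood test and Benjamini-Hochberg adjustment over the 16823 genes. Here a gene is called at an adjusted p under 0.05. In 2D, Ccnd1 and Cdk4 were higher and Ccnd2 was lower in D2.OR, so that 3 of 10 were called where 49.8% of all genes tested were (25.4% higher and 24.4% lower). In 3D, 6 of 10 were called where 53.8% of all genes tested were. Ccnd1, Rb1 and Rbl2 were higher in D2.OR (27.7% of all genes were) and Ccnd2, Ccne1 and Rbl1 were lower (26.1% of all genes were). The members were not tested against genes in general. The counts depended on the libraries, for all genes as well as for these. In 2D, 6 were called without batch 1 (53.8% of all genes tested were), and Ccnd2 alone was called without batch 2 (24.9%), without D2.OR 2D replicate 3 (39.1%) and with the 6 libraries compared fitted by themselves (37.5%). In 3D, 9 were called without batch 1 (56.9% of all genes tested were), 3 without D2A1 3D replicate 2 (42.2%) or replicate 3 (42.5%), and Ccnd2 alone without batch 2 (31.0%).

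**Figure D2:**
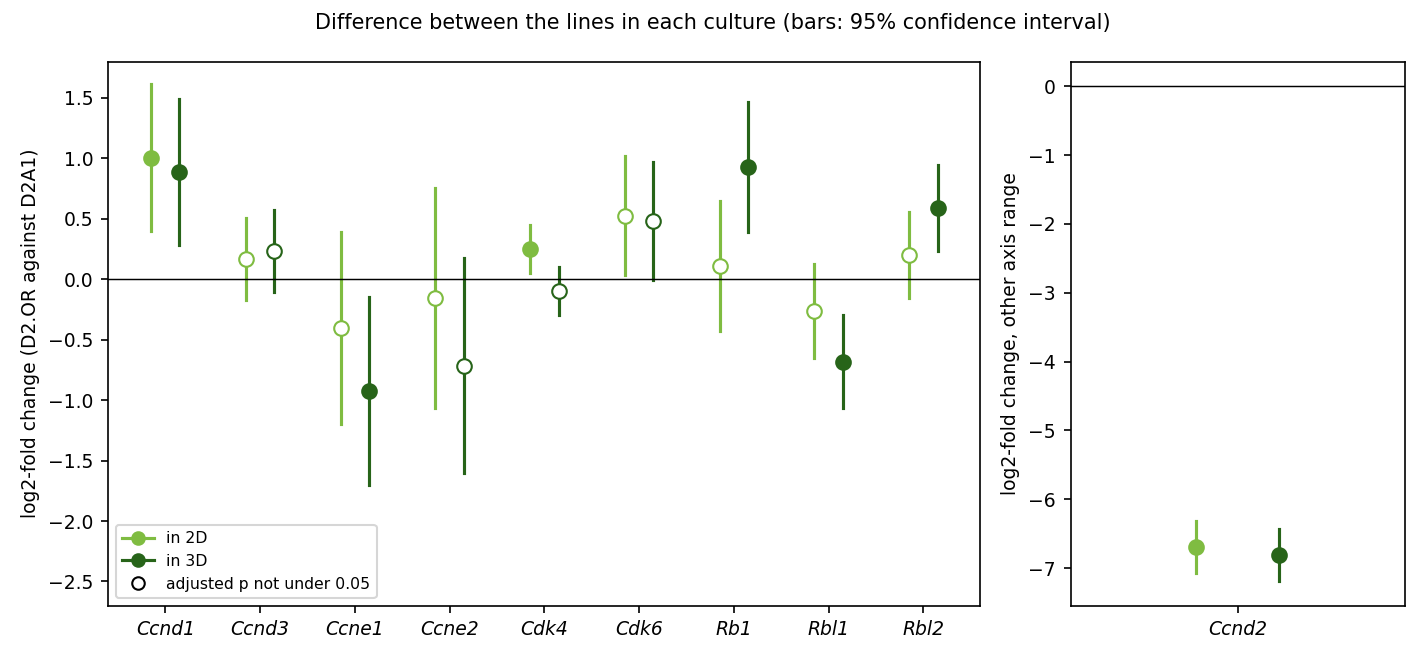
Log2-fold change of D2.OR against D2A1 in 2D (light) and 3D (dark) for each gene, with 95% confidence intervals from the edgeR fit, Ccnd2 on an axis range of its own. Filled circles passed the threshold and open circles did not. Ccnd2 lies near -6.70 and -6.81 and every other gene between -0.92 and 1.01.

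Ccnd2 (chr6:127125162-127152193, minus strand, GRCm38), which encodes cyclin D2, showed the largest difference of the 10 genes. Its TPM in replicates 1, 2 and 3 was 113, 94.7 and 66.7 in D2A1 2D and 96.1, 62.5 and 65.3 in D2A1 3D, against 1.26, 0.68 and 1.09 in D2.OR 2D and 0.79, 0.47 and 0.51 in D2.OR 3D. The lines did not overlap, and the lowest D2A1 library stood far above the highest D2.OR library. Ccnd2 was 104-fold lower in D2.OR in 2D (log2-fold change -6.70, SE 0.17, edgeR adjusted p = 3.06e-08) and 112-fold lower in 3D (-6.81, SE 0.17, edgeR adjusted p = 2.91e-08). It was called in all 24 alternative settings in each culture. The gene was still read in D2.OR, at 76.1 to 181 expected counts in every library against 9535 to 16426 in D2A1. 9330179D12Rik, an antisense RNA that overlaps Ccnd2 on the other strand, had 0.26 to 7.04 TPM over the 12 libraries. Whether the counting used strand is not given in the sources used here. In bulk RNA, fewer cells with a transcript and less of it per cell cannot be told apart.

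Ccnd1 (chr7:144929931-144939925, minus strand), which encodes cyclin D1, was higher in D2.OR in both cultures. Its TPM was 154, 99.6 and 57.2 in D2A1 2D and 154, 88.1 and 73.5 in D2A1 3D, against 148, 177 and 201 in D2.OR 2D and 234, 178 and 163 in D2.OR 3D. Batch 1 was the highest D2A1 library in both cultures and the lowest D2.OR library in 2D, so the lines overlapped in TPM in 2D and did not in 3D. By counts the difference was 2.01-fold in 2D (log2-fold change 1.01, SE 0.27, edgeR adjusted p = 0.0131) and 1.85-fold in 3D (0.89, SE 0.27, edgeR adjusted p = 0.0196). Within batches 1, 2 and 3 the log2-fold change was 0.10, 0.98 and 1.86 in 2D and 0.59, 0.95 and 1.16 in 3D. It passed the test in 18 of 24 alternative settings in each culture, and without the replicate block the edgeR adjusted p was 0.0507 in 2D and 0.0560 in 3D.

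Ccnd3 (chr17:47505051-47599691, plus strand), which encodes cyclin D3, lay between 115 and 162 TPM in all 12 libraries. In TPM the lines overlapped in 2D and did not in 3D (115 to 146 in D2A1 against 147 to 157 in D2.OR). By counts scaled for library size, the lines overlapped in both cultures. Its log2-fold change between the lines was 0.17 in 2D (95% confidence interval -0.17 to 0.51) and 0.23 in 3D (-0.10 to 0.57), and it was not called. Without batch 1 it was called higher in D2.OR in 2D (0.40, edgeR adjusted p = 0.0129) and in 3D (0.35, edgeR adjusted p = 0.0205), and without D2A1 2D replicate 1 by itself in 2D (0.36, edgeR adjusted p = 0.0399).

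The 3 D-type cyclins together came to similar sums in the 4 groups, 333 ± 82.1, 306 ± 78.1, 317 ± 45.3 and 346 ± 32.6 TPM in D2A1 2D, D2A1 3D, D2.OR 2D and D2.OR 3D (SD, n = 3). Their make-up was not alike. Ccnd2 took 25.1% to 30.6% of this sum in D2A1 2D and 23.3% to 25.7% in D2A1 3D, but 0.217% to 0.461% in D2.OR 2D and 0.140% to 0.206% in D2.OR 3D. Ccnd1 took 29.9% ± 7.55 and 33.5% ± 4.99 in D2A1, and 55.1% ± 1.19 and 55.1% ± 5.44 in D2.OR (2D and 3D, SD, n = 3). The share of Ccnd3 was 42.6%, 42.1%, 44.5% and 44.7% on average in the same order of groups. D2.OR thus carried D1 and D3 transcripts with hardly any D2, and D2A1 carried all 3. These sums and shares are descriptions of measured levels and were not tested.

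**Figure D3:**
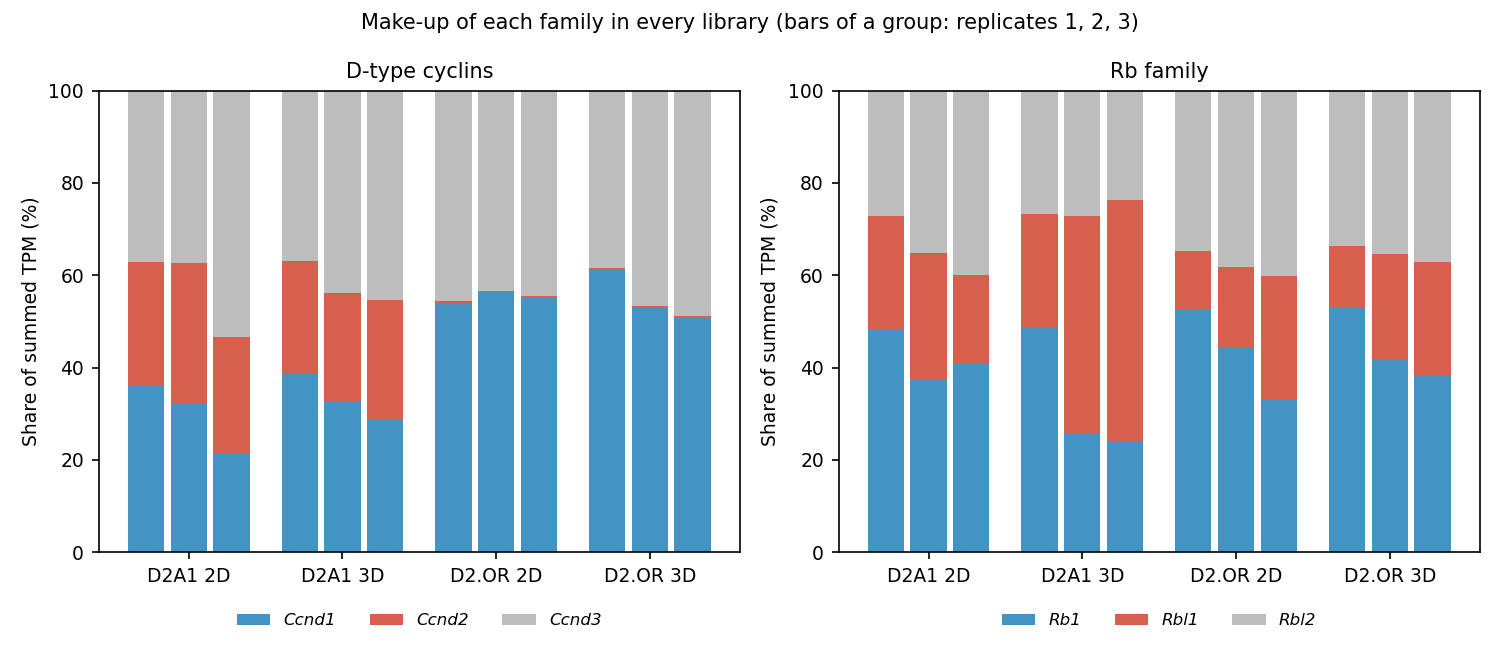
Share of the summed TPM (%) of the 3 D-type cyclins (left) and of the 3 Rb-family genes (right) in every library, in order of replicate within each group. Ccnd2 makes up at least 23.3% of the D-type sum in each D2A1 library and at most 0.461% in each D2.OR library, and Rbl1 makes up 46.9% and 52.2% of the Rb-family sum in replicates 2 and 3 of D2A1 3D.

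Cdk4 (chr10:127063534-127067920, plus strand), the cyclin D kinase with the higher level, had 560, 519 and 464 TPM in D2A1 2D, 582, 552 and 580 in D2A1 3D, 568, 562 and 593 in D2.OR 2D and 540, 521 and 529 in D2.OR 3D. In 2D it was slightly higher in D2.OR by counts, by 1.19-fold (log2-fold change 0.25, SE 0.089, edgeR adjusted p = 0.0428), with CPM ranges (read counts scaled by library size and TMM factor, not by length) that did not overlap. That call held in 8 of 24 alternative settings and did not pass with limma on log2(TPM + 1), where the log2-fold change was 0.16 (adjusted p = 0.152). In 3D the log2-fold change was -0.10 (95% confidence interval -0.30 to 0.10). Cdk4 made up 93.4% to 96.1% of the summed TPM of Cdk4 and Cdk6 in every library. Tspan31 overlaps the end of Cdk4 on the opposite strand, at 102 to 164 TPM.

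Cdk6 (chr5:3341485-3531008, plus strand), the other cyclin D kinase, had unlike estimates by reads and by TPM. Its CPM was 116, 96.0 and 79.5 in D2A1 2D, 133, 90.1 and 99.4 in D2A1 3D, 112, 149 and 158 in D2.OR 2D and 122, 158 and 169 in D2.OR 3D. On counts the log2-fold change of D2.OR against D2A1 was 0.53 in 2D (95% confidence interval 0.04 to 1.02, edgeR adjusted p = 0.0713) and 0.48 in 3D (-0.01 to 0.97, edgeR adjusted p = 0.0886), and neither was called. Without batch 1 it was called in 2D (0.80, edgeR adjusted p = 0.0011) and in 3D (0.79, edgeR adjusted p = 0.00109), and over all alternatives it was called in 5 of 24 in 2D, leaving out replicate 1 of D2A1 2D, D2.OR 2D or D2.OR 3D and DESeq2 among them, and in 3 of 24 in 3D, each without a replicate 1. On TPM with limma it was -0.02 (adjusted p = 0.957) and 0.02 (adjusted p = 0.942).

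The deposited transcript length of Cdk6 differed between the lines. RSEM gives each gene a length that is the mean over its transcripts weighted by their estimated abundance, and for Cdk6 it was 5754, 6077 and 5329 bases in D2A1 2D and 5713, 4466 and 5299 bases in D2A1 3D, against 7815, 8288 and 6616 bases in D2.OR 2D and 6894, 7066 and 7434 bases in D2.OR 3D. The lines did not overlap in either culture. A read count grows with transcript length at an equal number of molecules, and TPM divides by it. GENCODE M21 lists 6 Cdk6 transcripts on GRCm38, of which the longest (chr5:3343893-3531008, plus strand, 8 exons) has 11525 bases and another (chr5:3344312-3522225, plus strand, 7 exons) has 2470 bases. The values were quantified on release M15, and the files used here hold no level per transcript, so which Cdk6 transcripts differ was not tested.

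**Figure D4:**
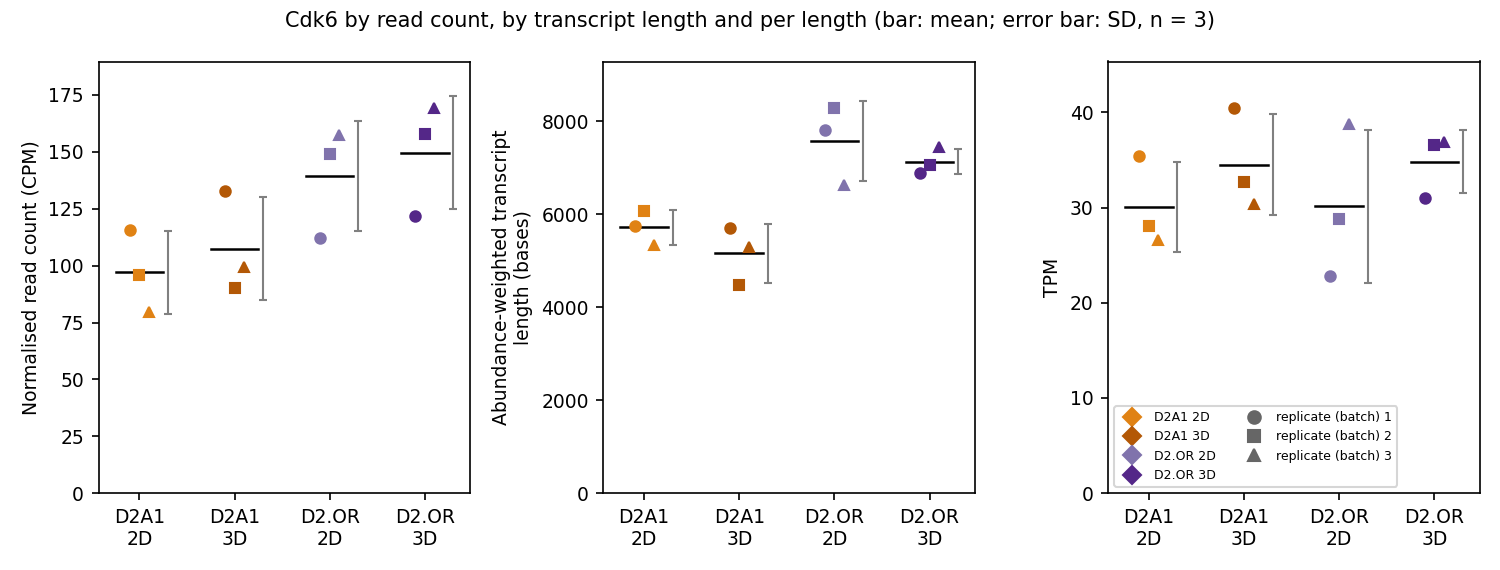
Cdk6 in each library as CPM (left), as the abundance-weighted transcript length in bases (middle) and as TPM (right), with group means and SD over 3 libraries. The weighted length is 4466 to 6077 bases in D2A1 and 6616 to 8288 bases in D2.OR, and the mean TPM is 30.0 and 34.5 in D2A1 and 30.2 and 34.8 in D2.OR.

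The E-type cyclins were not called between the lines in 2D, and Ccne1 was in 3D. Ccne1 (chr7:38097984-38107534, minus strand), which encodes cyclin E1, had 25.4, 13.7 and 13.4 TPM in D2A1 2D, 18.2, 27.1 and 31.3 in D2A1 3D, 8.52, 12.03 and 17.0 in D2.OR 2D and 10.5, 14.7 and 15.3 in D2.OR 3D. The lines overlapped in 2D and did not in 3D. In 3D Ccne1 was 1.90-fold lower in D2.OR (log2-fold change -0.92, SE 0.34, edgeR adjusted p = 0.0467), by -0.86, -0.87 and -1.03 within batches 1, 2 and 3, and the call held in 14 of 24 alternative settings. In 2D the log2-fold change was -0.40 (95% confidence interval -1.19 to 0.39), and it was -1.40 in batch 1 but 0.06 and 0.42 in batches 2 and 3.

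Ccne2 (chr4:11191351-11204779, plus strand), which encodes cyclin E2, had 13.5, 5.17 and 6.09 TPM in D2A1 2D, 9.11, 20.1 and 21.5 in D2A1 3D, 4.92, 6.04 and 8.28 in D2.OR 2D and 10.7, 10.9 and 12.2 in D2.OR 3D. Replicate 1 was the highest of its group in D2A1 2D and the lowest in D2A1 3D, as for Ccne1. Neither line contrast of Ccne2 was called, with log2-fold changes of -0.16 in 2D (95% confidence interval -1.07 to 0.75) and -0.71 in 3D (-1.60 to 0.17). Within batches 1, 2 and 3 the 2D value was -1.21, 0.34 and 0.75. Without batch 1, Ccne2 was called in opposite directions in the 2 cultures, higher in D2.OR in 2D (0.55, edgeR adjusted p = 0.0169) and lower in 3D (-0.93, edgeR adjusted p = 0.00135). Without D2A1 2D replicate 1 by itself the 2D value was 0.56 (edgeR adjusted p = 0.0577) and the 3D value -0.66 (edgeR adjusted p = 0.0142), and without D2A1 3D replicate 1 by itself the 3D value was -1.06 (edgeR adjusted p = 0.0417). Ccne1 and Ccne2 together summed to 18.9 to 38.9 TPM in D2A1 2D, 27.3 to 52.8 in D2A1 3D, 13.4 to 25.2 in D2.OR 2D and 21.2 to 27.5 in D2.OR 3D.

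In the Rb family, Rbl1 was lower and Rb1 and Rbl2 were higher in D2.OR than in D2A1 in 3D, and none of the 3 was called in 2D. Rbl1 (chr2:157145893-157204534, minus strand) had 16.3, 15.5 and 13.1 TPM in D2A1 2D, 16.9, 24.0 and 25.2 in D2A1 3D, 8.77, 10.4 and 14.1 in D2.OR 2D and 11.0, 14.0 and 13.4 in D2.OR 3D. Every D2A1 3D library was above every D2.OR library in either culture. In 3D it was 1.60-fold lower in D2.OR (log2-fold change -0.68, SE 0.17, edgeR adjusted p = 0.00840), and the call held in 23 of 24 alternative settings. In 2D the log2-fold change was -0.26 (95% confidence interval -0.65 to 0.12), and it was called in 1 of 24 alternative settings, without D2A1 2D replicate 3.

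Rbl2 (chr8:91070057-91123844, plus strand) had 17.9, 19.8 and 27.3 TPM in D2A1 2D, 18.3, 13.9 and 11.4 in D2A1 3D, 24.3, 22.6 and 21.1 in D2.OR 2D and 27.9, 21.6 and 20.1 in D2.OR 3D. In 3D the lines did not overlap, all D2.OR libraries being higher. The difference there was 1.51-fold (log2-fold change 0.59, SE 0.16, edgeR adjusted p = 0.0112), and the call held in 22 of 24 alternative settings. In 2D the log2-fold change was 0.20 (95% confidence interval -0.16 to 0.55), and it was called in 2 of 24 alternative settings, without batch 3 and without D2A1 2D replicate 3.

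Rb1 (chr14:73183673-73325822, minus strand), the retinoblastoma gene, varied widely within groups. Its TPM was 31.8, 21.03 and 27.9 in D2A1 2D, 33.2, 13.2 and 11.7 in D2A1 3D, 36.7, 26.3 and 17.4 in D2.OR 2D and 44.1, 25.3 and 20.7 in D2.OR 3D. Batch 1 was the highest of its group in all 4 groups, and the D2A1 3D range enclosed values of both D2.OR groups. With the batch in the model, Rb1 was 1.90-fold higher in D2.OR in 3D (log2-fold change 0.93, SE 0.24, edgeR adjusted p = 0.00961), by 0.47, 1.199 and 1.22 within batches 1, 2 and 3. The call held in 21 of 24 alternative settings, and without the replicate block the edgeR adjusted p was 0.157. The weighted transcript length of Rb1 was 3924, 3457 and 3109 bases in D2A1 3D and 3944 to 4330 bases in the other 3 groups. With limma on log2(TPM + 1), which also differs in scaling and test, the log2-fold change was 0.69 (adjusted p = 0.0281), and the part of length in that was not tested. Rb1 overlaps Rcbtb2 and holds Lpar6, both on the opposite strand, at 34.3 to 76.1 and 5.72 to 14.7 TPM.

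The summed TPM of the 3 Rb-family genes was 63.5 ± 6.31, 56.0 ± 10.9, 60.5 ± 8.68 and 66.0 ± 15.1 in D2A1 2D, D2A1 3D, D2.OR 2D and D2.OR 3D (SD, n = 3). Within that sum Rbl1 took 24.7%, 46.9% and 52.2% in replicates 1, 2 and 3 of D2A1 3D. It took 19.2% to 27.6% in D2A1 2D, 12.6% to 26.9% in D2.OR 2D and 13.2% to 24.7% in D2.OR 3D. Replicates 2 and 3 of D2A1 3D thus stood apart from the other 10 libraries in the make-up of the family, and replicate 1 did not.

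Since Rbl1 and the E-type cyclin genes are known E2F targets and Rbl2 differed between the lines in the other direction in 3D, their promoters are shown, from 250 bases before to 50 bases after the start site, as RefSeq gives them for GRCm38.p6. Each was searched on both strands for TTTCCCGC, TTTCGCGC, TTTGCCGC and TTTGGCGC, the spellings of a consensus E2F site, and a match is in capitals. The promoters are Rbl1 at chr2:157204485-157204784 (minus strand), Ccne1 at chr7:38107441-38107740 (minus strand) and Rbl2 at chr8:91069807-91070106 (plus strand).
Rbl1: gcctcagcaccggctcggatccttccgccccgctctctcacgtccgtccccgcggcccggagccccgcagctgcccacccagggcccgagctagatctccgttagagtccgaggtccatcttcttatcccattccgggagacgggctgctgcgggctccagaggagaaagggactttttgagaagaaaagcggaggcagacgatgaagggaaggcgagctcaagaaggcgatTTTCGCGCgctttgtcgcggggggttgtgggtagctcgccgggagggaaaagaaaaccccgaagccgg
Ccne1: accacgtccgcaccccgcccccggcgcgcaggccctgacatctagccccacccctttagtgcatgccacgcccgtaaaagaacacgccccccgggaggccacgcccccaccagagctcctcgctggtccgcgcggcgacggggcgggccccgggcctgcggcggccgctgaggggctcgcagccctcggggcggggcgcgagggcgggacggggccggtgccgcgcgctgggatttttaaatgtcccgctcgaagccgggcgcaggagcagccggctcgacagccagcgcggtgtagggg
Rbl2: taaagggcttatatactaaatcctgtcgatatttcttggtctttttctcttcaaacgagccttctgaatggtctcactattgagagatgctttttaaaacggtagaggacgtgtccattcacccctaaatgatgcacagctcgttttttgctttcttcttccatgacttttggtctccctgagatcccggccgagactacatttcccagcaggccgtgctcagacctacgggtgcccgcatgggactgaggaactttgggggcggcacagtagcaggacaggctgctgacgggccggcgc
The Rbl1 promoter holds TTTCGCGC, which begins 18 bases before the start site. Promoters were matched for 6 of the 10 genes (Ccnd3 with 2 promoters, Ccne1, Cdk4, Cdk6, Rbl1 and Rbl2), and 1 of these 7 promoters holds a match. Of 32851 promoters of the same length, 744 do (2.26%). Among the pathway lists described below, 10 of 19 promoters of E2F target genes and 5 of 12 promoters of the E2F factors and their partners hold a match, as do 1 of 6 for the MuvB complex, 2 of 8 for the other G1 kinases, 1 of 9 for the CDK inhibitors, 0 of 15 for cyclin turnover and 0 of 6 for the proliferation marks. A match is a match of letters, and its absence says that these letters are not in this window.

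Whether culture in 3D changed these genes was asked within each line. In D2A1, 0 of 10 were called by edgeR (3.48% of all genes tested were), and 5 of 10 had an unadjusted p under 0.05 (31.4% of all genes tested did). The DESeq2 likelihood-ratio test called 4, Ccne2 and Rbl1 higher and Rb1 and Rbl2 lower in 3D, where it called 20.9% of all genes. In D2.OR, 0 of 10 were called by edgeR (1.62% of all genes tested were) or by DESeq2 (6.98% were), and Ccnd2 alone had an unadjusted p under 0.05 (17.6% of all genes tested did). Its fitted 3D–2D value in D2.OR was -0.40 on the log2 scale (95% confidence interval -0.73 to -0.07, edgeR adjusted p = 0.203), at the low levels given above. In D2A1, the log2-fold change (3D–2D) was 1.204 for Ccne2 (95% confidence interval 0.28 to 2.13, edgeR adjusted p = 0.0889), 0.60 for Rbl1 (0.22 to 0.99, edgeR adjusted p = 0.0653), -0.78 for Rb1 (-1.32 to -0.24, edgeR adjusted p = 0.0748), -0.46 for Rbl2 (-0.81 to -0.10, edgeR adjusted p = 0.0932) and -0.29 for Ccnd2 (-0.58 to -0.0036, edgeR adjusted p = 0.155). In D2.OR it was 0.65 for Ccne2 (-0.24 to 1.54), 0.19 for Rbl1 (-0.20 to 0.57), 0.04 for Rb1 (-0.49 to 0.58) and -0.06 for Rbl2 (-0.42 to 0.29).

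Batch 1 of D2A1 stood apart from the other 2 batches in this contrast. For Ccne2 the log2-fold change (3D–2D) in D2A1 was -0.23 in batch 1 and 1.95 and 2.10 in batches 2 and 3. For Ccne1 it was -0.44 in batch 1 and 1.23 and 1.303 in the others, and for Rb1 it was -0.01, -0.85 and -1.48. Rbl1 had 0.12, 0.70 and 1.04, and Rbl2 had -0.06, -0.29 and -0.97. Without batch 1, 6 of the 10 genes were called in D2A1, Ccne1 (1.26), Ccne2 (2.02), Cdk4 (0.29) and Rbl1 (0.86) higher and Rb1 (-1.19) and Rbl2 (-0.65) lower in 3D, with edgeR adjusted p from 0.000281 to 0.0314. In the same fit 36.3% of all genes tested were called. Leaving out D2A1 2D replicate 1 by itself also gave 6 calls (30.3% of all genes were called), and leaving out D2A1 3D replicate 1 by itself gave 3, Ccne2, Rb1 and Rbl1 (12.8% of all genes were called). With batch 2 or batch 3 left out, 0% of all genes tested were called in D2A1 3D–2D, so the calls depended on which batch was removed.

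Proliferation marks also differed between batches. The summed TPM of Mki67, Top2a, Plk1, Aurkb, Ccnb1, Bub1 and Cdc20 was 441, 379 and 303 in D2A1 2D, 528, 839 and 934 in D2A1 3D, 195, 332 and 432 in D2.OR 2D and 272, 478 and 470 in D2.OR 3D. Batch 1 was the highest of its group in D2A1 2D and the lowest in each of the other 3 groups. Mki67, the gene of the Ki-67 antigen, had 33.2, 20.5 and 18.8 TPM in D2A1 2D and 40.0, 56.4 and 64.2 in D2A1 3D, against 17.8, 36.6 and 43.1 in D2.OR 2D and 33.2, 53.0 and 50.8 in D2.OR 3D. All D2A1 3D libraries exceeded all D2A1 2D libraries, and in D2.OR each batch was higher in 3D than in 2D. The study, by contrast, reports that D2.OR cells in 3D arrested in G0/G1 and that staining found none positive for KI67. That staining measured protein, on an earlier day of culture than the RNA, so the measures are unlike. The part of cycling in the values of the Ccne, Rb and Rbl genes was not tested.

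**Figure D5:**
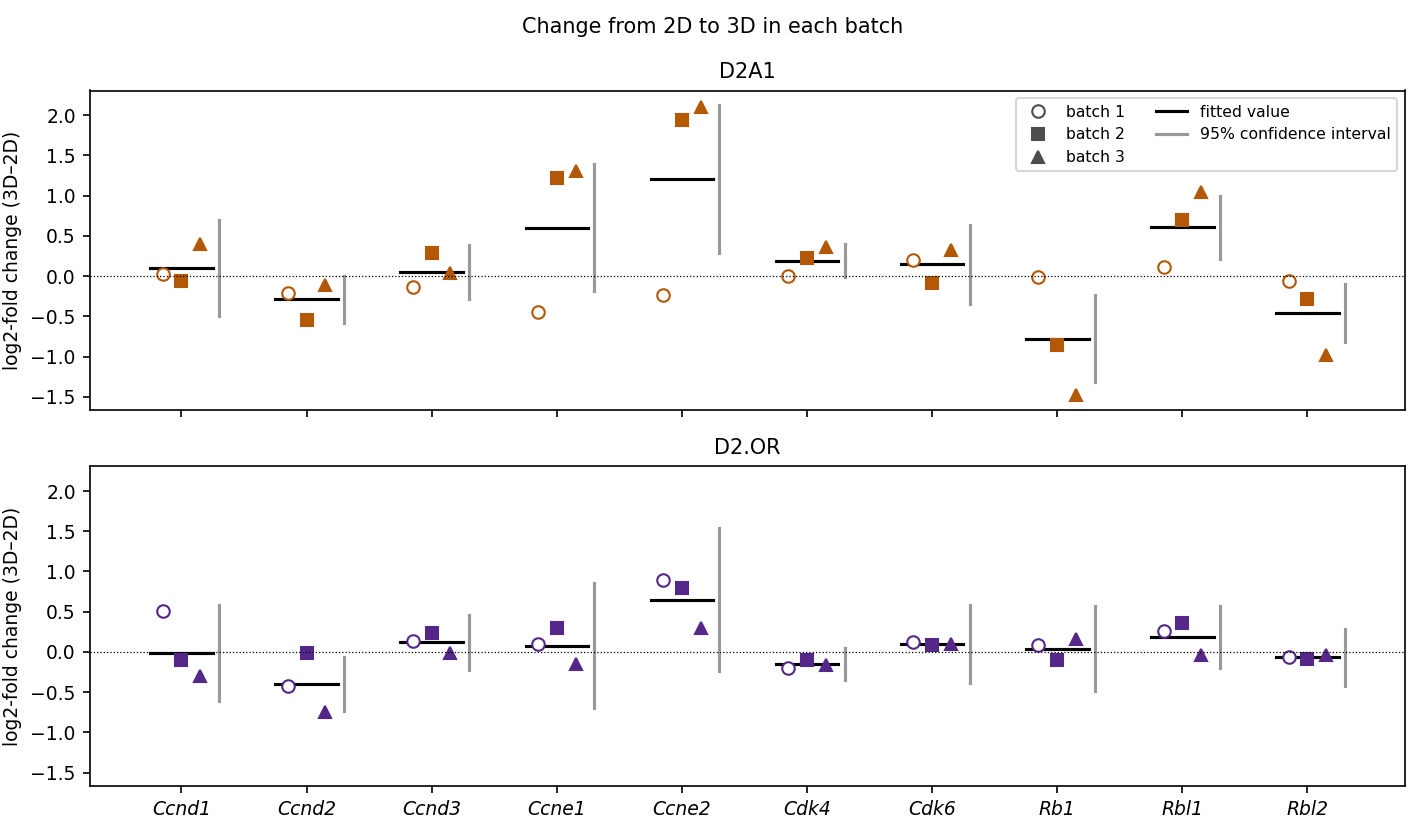
Log2-fold change (3D–2D) of each gene within each batch in D2A1 (top) and D2.OR (bottom), with the fitted value (bar) and its 95% confidence interval (grey line). In D2A1 the open circles of batch 1 lie near 0 or on the other side of 0 from batches 2 and 3 for Ccne1 and Ccne2, and for Rb1 they lie at -0.01 against -0.85 and -1.48.

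Whether the change from 2D to 3D differed between the lines was tested as an interaction, with positive values where the 3D–2D difference was more positive in D2.OR than in D2A1. By edgeR, 0 of 10 were called (0.0238% of all genes tested, 4 genes, were), and 2 of 10 had an unadjusted p under 0.05 (17.8% of all genes tested did). DESeq2 also called 0 of 10, where it called 5.66% of all genes. Those 2 were Cdk4, at -0.35 (SE 0.13, edgeR adjusted p = 0.211), and Rb1, at 0.82 (SE 0.34, edgeR adjusted p = 0.253). For Cdk4 the log2-fold change (3D–2D) was 0.0036, 0.22 and 0.36 in batches 1, 2 and 3 of D2A1 and -0.20, -0.10 and -0.16 in those of D2.OR. For Rb1 the interaction was 0.09, 0.76 and 1.64 within batches 1, 2 and 3. The fitted interaction was -0.56 for Ccne2 (95% confidence interval -1.84 to 0.72), -0.52 for Ccne1 (-1.62 to 0.59), -0.42 for Rbl1 (-0.96 to 0.13) and 0.39 for Rbl2 (-0.11 to 0.90). Without batch 1, 4 were called, Ccne1 (-1.195), Ccne2 (-1.49) and Cdk4 (-0.42) with a lower and Rb1 (1.21) with a higher change in D2.OR, where 17.8% of all genes were called. Without D2A1 2D replicate 1 by itself, 3 were called, where 14.5% of all genes were. With batch 2 or batch 3 left out, 0% of all genes tested were called in the interaction.

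The genes around these 10 in the same pathway were counted in lists. The median log2-fold change over all genes tested was between -0.01 and 0.00 in each of the 5 comparisons. The counts below stand against the shares of all genes called by edgeR, 25.4% higher and 24.4% lower in 2D and 27.7% higher and 26.1% lower in 3D. From 2D to 3D the shares of all genes called by edgeR, called by DESeq2 and at an unadjusted p under 0.05 were 3.48%, 20.9% and 31.4% in D2A1 and 1.62%, 6.98% and 17.6% in D2.OR, and in the interaction they were 0.0238%, 5.66% and 17.8%. No list was tested against these shares. Of 22 E2F target genes of G1/S, 1 was higher and 2 were lower in D2.OR in 2D (median log2-fold change -0.13), fewer than the share of all genes, and 8 were lower and 0 higher in 3D (median -0.82). Mcm2, a subunit of the replicative helicase, was lower in 2D by -1.196 (SE 0.19, edgeR adjusted p = 0.000763), and Cdt1, which loads that helicase, by -0.58 (SE 0.13, edgeR adjusted p = 0.00575), while Dut, which clears dUTP, was higher by 0.78 (SE 0.20, edgeR adjusted p = 0.0107). From 2D to 3D in D2A1 all 22 had a positive log2-fold change (median 1.03), of which 1 was called, Cdt1 (0.58, edgeR adjusted p = 0.0489), against 17 by DESeq2 (3.48% and 20.9% of all genes were). In D2.OR 21 of 22 were positive (median 0.38) and 0 were called by edgeR or DESeq2, with 2 at an unadjusted p under 0.05. In the interaction 21 of 22 were negative (median -0.58) and 0 were called by edgeR or DESeq2, with 0 at an unadjusted p under 0.05. Without batch 1 the counts called were 21 higher in D2A1 3D–2D, 17 lower in the interaction and 18 lower in D2.OR against D2A1 in 3D, where 36.3%, 17.8% and 56.9% of all genes were called in either direction. With batch 2 or batch 3 left out, 0% of all genes were called in D2A1 3D–2D and in the interaction. In the 3D line contrast 31.0% and 35.2% of all genes were called in those fits.

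Of the 7 proliferation marks, 0 were called between the lines in 2D by edgeR or DESeq2 (0 at an unadjusted p under 0.05), where these tools called 49.8% and 52.3% of all genes. In 3D, 5 were lower in D2.OR (median log2-fold change -1.03), where 26.1% of all genes were lower. Cdc20, an activator of the anaphase-promoting complex, was called from 2D to 3D in D2A1 (1.27, SE 0.27, edgeR adjusted p = 0.0453), and the other 6 were positive without passing, while DESeq2 called all 7 (3.48% and 20.9% of all genes were called by these tools). In D2.OR all 7 were positive (median 0.29) and 0 were called by edgeR or DESeq2, with 0 at an unadjusted p under 0.05. In the interaction all 7 were negative (median -0.69) and 0 were called by edgeR or DESeq2, with 1 at an unadjusted p under 0.05. Without batch 1, 7 were called in D2A1 3D–2D and 7 in the interaction, where 36.3% and 17.8% of all genes were. With batch 2 or batch 3 left out, 0% of all genes were called in either comparison.

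The E2F factors and their DP partners were called lower in D2.OR for 3 of 10 genes in 2D, near the 24.4% of all genes, and for 5 of 10 in 3D (26.1% of all genes), and higher for 0. E2f2, an activator E2F, was lower in 2D by -1.38 (SE 0.24, edgeR adjusted p = 0.00138), at 2.77 to 3.08 TPM against 7.94 to 9.64 in D2A1. Tfdp2, a DP partner, was lower by -0.58 (SE 0.12, edgeR adjusted p = 0.00389) and E2f5, which binds p130, by -0.27 (SE 0.093, edgeR adjusted p = 0.0377). Of 8 genes of the MuvB complex, which joins p107 or p130 in the DREAM repressor, and of its partners, 1 was higher and 3 were lower in 2D (25.4% and 24.4% of all genes were) and 4 were lower in 3D (26.1%). Lin9, a core subunit, was lower in 2D by -0.77 (SE 0.19, edgeR adjusted p = 0.00864) and Rbbp4, another, by -0.42 (SE 0.092, edgeR adjusted p = 0.00465). In 3D–2D and in the interaction 0 genes of either list were called by edgeR. At an unadjusted p under 0.05 were 5 E2F-list and 4 MuvB-list genes in D2A1, 0 of each in D2.OR, and 1 of each in the interaction (31.4%, 17.6% and 17.8% of all genes were). DESeq2 called 3 and 4 of them in D2A1 (20.9% of all genes), and 0 of either list in D2.OR and in the interaction.

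Among the CDK inhibitors, Cdkn2a, the Ink4a/Arf gene, was lower in D2.OR in 2D by -0.81 (SE 0.095, edgeR adjusted p = 0.000158), at 256 to 389 TPM against 516 to 711 in D2A1. Cdkn2c, which encodes the Cdk4 and Cdk6 inhibitor p18, was lower by -0.92 in 2D (SE 0.13, edgeR adjusted p = 0.000368) and by -1.39 in 3D (SE 0.13, edgeR adjusted p = 3.24e-05). Of the 6 inhibitors tested, 0 were higher and 2 lower in 2D (25.4% and 24.4% of all genes were), and 2 were higher and 2 lower in 3D (27.7% and 26.1%). Cdkn1a, which encodes p21, was higher in D2.OR in 3D by 1.34 (SE 0.27, edgeR adjusted p = 0.00288), at 60.4 to 105 TPM against 21.5 to 45.4 in D2A1 3D. Its interaction was 1.14 (SE 0.38, edgeR adjusted p = 0.194). From 2D to 3D in D2A1, Cdkn2c was called (0.57, edgeR adjusted p = 0.0472), with 5 of 6 at an unadjusted p under 0.05 (31.4% of all genes were) and 4 called by DESeq2 (20.9%). In D2.OR 0 of 6 were called, with 2 at an unadjusted p under 0.05 and 1 called by DESeq2, and in the interaction 0 of 6 were called by edgeR or DESeq2, with 3 at an unadjusted p under 0.05.

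Among the other G1 kinases and activators, 2 of 9 tested were higher in D2.OR in 2D (25.4% of all genes were) and 3 were lower in 3D (26.1%). Cdk2, the partner of cyclin E, was higher in 2D by 0.55 (SE 0.16, edgeR adjusted p = 0.0198) and Mnat1, a subunit of the CDK-activating kinase, by 0.57 (SE 0.18, edgeR adjusted p = 0.0267). Hsp90ab1, a chaperone that with Cdc37 folds Cdk4, had an interaction of -0.73 (SE 0.18, edgeR adjusted p = 0.138). Its 3D–2D values were 0.10, 0.48 and 0.30 in the batches of D2A1 and -0.73, -0.36 and -0.22 in those of D2.OR. All 9 genes tested in this list had a negative interaction, and 0 were called by edgeR there or in 3D–2D of either line. At an unadjusted p under 0.05 were 2 in D2A1, 3 in D2.OR and 1 in the interaction (31.4%, 17.6% and 17.8% of all genes were). Of 12 genes of cyclin D and cyclin E turnover, 2 were higher and 6 lower in D2.OR in 2D (25.4% and 24.4% of all genes were), and the counts were 2 and 6 in 3D as well (27.7% and 26.1%). Fbxw7, the ubiquitin ligase subunit that recognises cyclin E, was lower in 2D by -0.91 (SE 0.12, edgeR adjusted p = 0.000278), and Usp28, a deubiquitinase that counters it, by -1.06 (SE 0.12, edgeR adjusted p = 0.000122). Cul1, the scaffold of that ligase, was lower by -0.46 (SE 0.092, edgeR adjusted p = 0.00297).

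Within groups, some of the 10 genes varied together. As deviations from the group means of log2 CPM over the 12 libraries, Pearson's r was 0.94 between Ccne1 and Ccne2, 0.81 between Ccne1 and Rbl1 and 0.76 between Rb1 and Rbl2. It was -0.91 between Rb1 and Rbl1, -0.87 between Rbl1 and Rbl2 and -0.89 between Cdk4 and Rbl2. Rbl1 thus varied with Ccne1 and against Rb1 and Rbl2. Ccnd1 and Ccnd2, whose levels differ in opposite directions between the lines, had an r of 0.70. These libraries share batches, lanes and line, so the values are given as descriptions.

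Over the 12 libraries, among 12709 genes with a mean of at least 1 CPM, the genes most like Rbl1 in log2 CPM were Aspm (r = 0.99) and Kifc1 (r = 0.99), which also led on deviations from group means. Ccng2 was most like Rbl2 on both measures (r = 0.98 on each). Ccne2 was most like Dck (r = 0.99 over all libraries and 0.98 on deviations), and Ccne1 was most like Ssrp1 and Chaf1a on deviations (r = 0.99 for each). For Ccnd2, whose pattern over 12 libraries is mostly the line difference, Tdrkh and Col4a2 came closest. Ccnd1 was most like Hbegf on deviations (r = 0.98), Rb1 like Pon3 (r = 0.99), Cdk4 like Uba2 (r = 0.98), Cdk6 like Ube2f (r = 0.97) and Ccnd3 like 5330438D12Rik (r = 0.96).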

How the data were processed

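RNA of 12 libraries was sequenced. Per the labels and the methods, the authors checked reads with FastQC 0.11.4, trimmed them with Trimmomatic 0.32, dropped reads with undetermined bases, aligned them with STAR 2.5.3 to GRCm38 (GENCODE M15) and quantified genes with RSEM 1.3.0. The deposited expected counts are not normalized, and a read that fits several genes is divided among them. The deposited TPM and FPKM values are scaled by the authors for length and depth, and FPKM was not used. The weighted transcript length is a column of the deposited files. A series table holds the same TPM (largest difference 0), and 0 of its sample columns lacked a sample.

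Expected counts were rounded (10.7% to 11.8% of values per library were not whole). They were tested with edgeR 4.0.16 in R 4.3.3 by the quasi-likelihood test, with TMM scaling, a filter on low counts, 4 group terms and the batch as a block over all 12 libraries. Raw p-values were adjusted by Benjamini-Hochberg over 16823 genes. CPM is TMM-scaled, log2 CPM has a prior count of 2, and SEs were taken from the log2-fold change and its F statistic. The depth was 47589611 to 73325069 counts per library, with a common biological coefficient of variation of 21.2%. Libraries with the same replicate number were treated as pairs, as the labels name a batch for each, and the deviations of such pairs from their group means correlated at 0.08 to 0.51 (median 0.27), against a median of -0.19 for different numbers. Centring each group on its own mean ties these medians together, so the negative one is not separate evidence of pairing. Counts of 16415 genes were simulated for the 2D line contrast with 200 genes changed, 50 at each size. Of 50 genes, 4%, 48%, 64% and 90% were recovered at changes of 0.5, 1, 2 and 4 on the log2 scale, with 7 false calls. In the data 49.8% of all genes tested were called in that contrast, so these recovery rates need not hold there.

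Alternatives were no replicate block, DESeq2 1.42.0, limma 3.58.1 on log2(TPM + 1) and log2(TPM + 0.1), other scalings and filters, only the libraries compared and leaving out single batches or libraries. The genes, lists and tests were chosen with earlier results of these data known. Named were the 10 genes, for each list the 3 genes ranked first by p in the 2D line contrast and in the interaction, fewer of them being shown, and the 2 genes most alike to each of the 10. Epcam, Cdh1, Krt8, Krt18, Pdgfra, Pdgfrb and Cd68 are from marker lists. Sequences are from RefSeq (GRCm38.p6), and transcripts from GENCODE M21 (GRCm38). Figures were drawn with matplotlib 3.10.9.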

Additional observations from a re-analysis of the deposited data

Results flagged for a closer look

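The log2-fold change (3D–2D) of Cdk4 was above 0 in all 3 batches of D2A1 and below 0 in all 3 batches of D2.OR. The interaction was -0.35 (log2 scale, SE 0.13, edgeR adjusted p = 0.211) and so did not pass the test over all genes. In batch 1 of D2A1 the change was 0.0036. Over 23 alternative settings the interaction ran from -0.42 to -0.27, and it was called in 2 of them, without batch 1 (adjusted p = 0.0493) and without D2A1 2D replicate 1 (adjusted p = 0.0373). Over the alternatives the adjusted p ran from 0.0373 to 0.847.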

How the results depend on the processing

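Counts were lowest for Ccnd2 in D2.OR, at 76.1 to 181 per library. The Ccnd2 difference between the lines was called in 24 of 24 alternatives in each culture. The numbers of members called in the line contrasts and in D2A1 3D–2D rested on batches. With the 6 libraries of the 2D line contrast fitted alone, 1 member was called. DESeq2 called 4 members in D2A1 3D–2D. With a batch or library left out, the number called ran from 1 to 6 in the 2D line contrast, 1 to 9 in the 3D line contrast, 0 to 6 in D2A1 3D–2D and 0 to 4 in the interaction, with 0 throughout in D2.OR 3D–2D. The share of all genes called moved too, from 24.9% to 53.8%, 31.0% to 59.5%, 0% to 36.3% and 0% to 17.8% in the same order, and from 0% to 8.38% in D2.OR 3D–2D. Without the replicate block, 2, 4, 0, 0 and 0 members were called in the order in which the comparisons were described, where 43.9%, 47.8%, 0.309%, 0.119% and 0% of all genes were. With the replicate block removed, 1 direction turned, that of Ccnd1 in D2.OR 3D–2D (0.041). Scaling by the library total alone put the median of all genes at -0.17 in the 2D and -0.10 in the 3D line contrast, and limma on log2(TPM + 0.1) put it at -0.11 in the 2D line contrast and 0.13 in the interaction, against -0.01 to 0.00 in the tests reported.

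The directions that turned belong to log2-fold changes not called over the 12 libraries, and 1 was called after turning, Ccne2 in the 2D line contrast without batch 1 (0.55, edgeR adjusted p = 0.0169). With limma on log2(TPM + 1), then on log2(TPM + 0.1), they were -0.016 and -0.017 for Cdk6 and -0.049 and -0.052 for Rb1 in the 2D line contrast, -0.13 and -0.13 for Ccnd3 in D2A1 3D–2D, 0.13 and 0.13 for Ccnd1 and 0.021 and 0.022 for Rbl2 in D2.OR 3D–2D, and 0.066 and 0.066 for Ccnd1 and 0.035 and 0.037 for Cdk6 in the interaction. With the library total alone they were -0.060 for Rb1 in the 2D line contrast, 0.061 for Ccnd1 and 0.012 for Rbl2 in D2.OR 3D–2D, and 0.017 for Cdk6 in the interaction. Ccnd1 in D2.OR 3D–2D was 0.0055 with at least 10 counts in every library and 0.052 with the 6 libraries compared.

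With a batch or library left out, the values of the 2D line contrast ran from -0.79 to 0.25 for Ccne1, -0.57 to 0.56 for Ccne2 and -0.10 to 0.42 for Rb1. Those of D2A1 3D–2D ran from -0.14 to 0.34 for Ccnd1, -0.075 to 0.25 for Ccnd3 and -0.10 to 0.34 for Cdk6. Those of D2.OR 3D–2D ran from -0.32 to 0.31 for Ccnd1, -0.10 to 0.28 for Ccne1, -0.080 to 0.27 for Cdk6 and -0.052 to 0.20 for Rb1. In the interaction they ran from -0.42 to 0.20 for Ccnd1, -0.43 to 0.14 for Ccnd2, -0.13 to 0.19 for Ccnd3, -1.49 to 0.054 for Ccne2 and -0.24 to 0.19 for Cdk6. The cause of these turns was not tested. Under settings that kept all the libraries of a comparison, 404 values of members kept direction and side of the threshold, 21 turned, 5 passed it anew and 10 no longer passed.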
